A study of Homo sapiens with 8 samples.

Results

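Crosslink sites of dyskerin and GAR1 that lay in exons of annotated pseudogenes were collected from iCLIP libraries of U2OS, a human osteosarcoma cell line. A site was a member when it lay in an exon of a GENCODE 44 gene whose type contains the word pseudogene (ribosomal RNA pseudogenes left out), on the same strand, and in no other annotated gene. Of 1623913 distinct sites over all libraries, 3004 met this rule. They fell in 183 of the 14736 annotated pseudogenes, of which 11634 had at least 1 exon nucleotide in no other gene. In iCLIP, ultraviolet light (here 254 nm, 1500 J/m2) links a protein to the RNA it touches, and reverse transcription stops at the link, and each cDNA therefore begins next to the nucleotide that was contacted. Untreated U2OS cells were crosslinked, nuclear fractions were taken, and RNA was precipitated with a mouse antibody against dyskerin, a rabbit antibody against GAR1, or mouse immunoglobulin (IgG). The 8 libraries formed 4 groups of 2 replicates: dyskerin, GAR1, and 1 IgG set labelled for each. The IgG was thus not of the same species as the GAR1 antibody. Nothing in the labels says that replicates were separate cultures, so a p-value here speaks of the scatter among these libraries alone, and that scatter may be technical.

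A pseudogene is a copy of a gene that has lost the ability to make the protein of its parent. Processed pseudogenes arose from a spliced mRNA that was copied back into the genome and lack introns. Unprocessed pseudogenes arose by duplication of genomic DNA and keep the exon and intron structure, and unitary pseudogenes are former genes with no working copy left in the genome. Since copies resemble their parents, a short read from the parent can also match the pseudogene, and a read from the pseudogene can match the parent. Dyskerin is the enzyme of the H/ACA complex, which turns uridine into pseudouridine in RNA, and GAR1 is another core protein of that complex.

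To show how closely the contacted sequence resembled other genes, the 30 nt that follow the leading site of the main pseudogenes are given below, each 5′ to 3′ from GRCh38, beside the closest stretch found in transcripts of the parent genes. The first bases of a read lie in this window, since reads begin at the nucleotide after the site. Capitals mark bases that differ between pseudogene and parent, and a sequence all in lower case has no difference or no partner within 5 mismatches.
ANKRD20A8P, chr2:94798895-94798924, minus strand: atctatgaaaaaagtacaacagGaatgAAa
ANKRD20A1, chr9:67917476-67917505, plus strand, coding sequence: atctatgaaaaaagtacaacagCaatgTGa
GOLGA8VP, chr15:101776242-101776271, minus strand: aCaaAtccGgctagagagAgatgaatatgc
GOLGA8F, chr15:28384360-28384389, plus strand, coding sequence: aGaaGtccAgctagagagGgatgaatatgc
POTEKP, chr2:131625989-131626018, plus strand: ttgcaggaagaaGttgccatgctaagactg
POTED, chr21:13641396-13641425, plus strand, coding sequence: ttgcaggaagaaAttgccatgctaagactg
PHF2P2, chr13:18955553-18955582, minus strand, and PHF2, chr9:93662981-93663010, plus strand, coding sequence: tcgagagcaaaccaagagcaagtcagaggc
AHSA2P, chr2:61179134-61179163, plus strand: tttcttctatgagtggaacatcaaactggg
ENSG00000230987, chr1:189992373-189992402, minus strand: tcacagtacactaaacaacaaatgaagaag
DDX12P, chr12:9427799-9427828, minus strand: acagacaggtaagagagttgccctcagagg
The window of PHF2P2 was identical to coding sequence of PHF2, whereas that of ANKRD20A8P differed from its parent at 3 bases, that of GOLGA8VP at 4 and that of POTEKP at 1. The alignment allowed 2 mismatches per read. The AHSA2P window differed from the closest stretch of AHSA1 at 8 bases. The DDX12P window had no close match in spliced DDX11 transcripts, but it occurred at 3 places in the genome, inside DDX12P, its neighbour copy DDX12B and the gene DDX11. Not printed are the window of ENSG00000237268, at 3 places in the genome, and that of NCOR1P3, at 5 places and identical to NCOR1 coding sequence.

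Pseudogene sites made up a small share of the significant cDNAs in every library. The dyskerin libraries held 2134 of 1693951 and 3271 of 1875459 cDNAs at these sites, or 0.126% (95% Wilson interval 0.121 to 0.131) and 0.174% (0.169 to 0.180). The GAR1 libraries held 36 and 87, or 0.00615% (0.00444 to 0.00851) and 0.00440% (0.00357 to 0.00543). The dyskerin IgG libraries held 138 and 2, or 0.0942% and 0.0244%, and the GAR1 IgG libraries 8 and 5, or 0.00271% and 0.0467%. Both dyskerin libraries lay above every other library, and both GAR1 libraries lay between the values of their IgG set. The gap between dyskerin and GAR1 depended on counting cDNAs. With each site counted once, members made up 0.159% and 0.209% of sites in dyskerin, 0.0887% and 0.0973% in GAR1, 0.137% and 0.0677% in the dyskerin IgG set and 0.0398% and 0.109% in the GAR1 IgG set. Over all sites GAR1 averaged 23.6 and 37.0 cDNAs per site and dyskerin 1.88 and 2.03, whereas member sites held 1.64 and 1.67 in GAR1 and 1.49 and 1.69 in dyskerin. These intervals cover counting error only. The share averaged 0.0777% over the 4 antibody libraries and 0.0420% over the 4 IgG libraries, a difference of 0.0357 percentage points that did not pass (two-sided exact permutation test, p = 0.486, adjusted p = 0.543 over 3 share measures). The smallest p this test can give is 0.0286. With 2 libraries against 2, the smallest exact p is 0.333, so the gap between dyskerin and GAR1 was not tested in this way. Without the second dyskerin library the difference fell to 0.00349 percentage points.

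**Figure D1:**
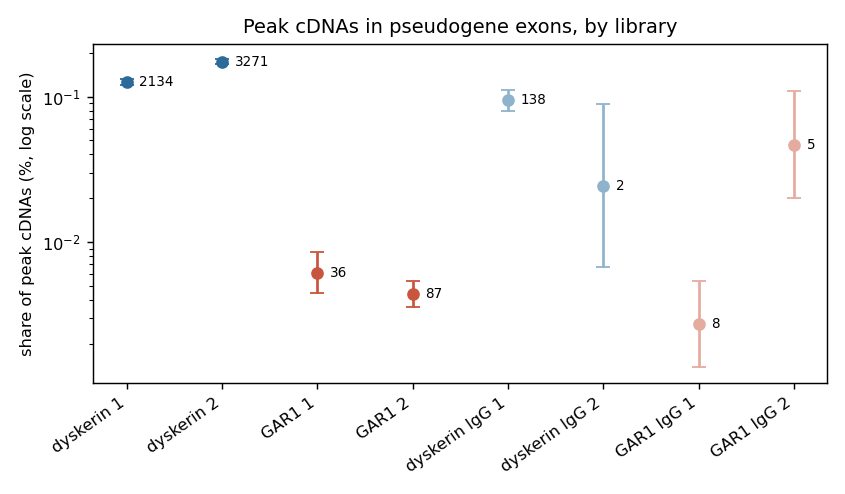
Share of peak cDNAs that lay in pseudogene exons (%, log axis) in each library, with 95% Wilson intervals as bars and the number of cDNAs beside each point. The dyskerin libraries sit at 0.126% and 0.174%, above the first dyskerin IgG library at 0.0942% and above the GAR1 libraries at 0.00615% and 0.00440%, a gap that was smaller when each site counted once.

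Total peak cDNAs ranged from 8183 and 10701 in the second replicates of the dyskerin IgG and GAR1 IgG sets to 1976518 in the second GAR1 library, so those IgG libraries carry very little information on any pseudogene. Totals count cDNAs at significant sites only and are not sequencing depths. Over the mesenchymal markers VIM, COL1A1, COL1A2, SPARC, FN1, RUNX2 and CD44, the lineage of osteosarcoma, the dyskerin libraries held 1970 and 3760 cDNAs, with COL1A2 at 0 in all libraries. The blood markers PTPRC, CD3E and HBB were at 0 throughout, and of the epithelial markers EPCAM, CDH1 and KRT5 only CDH1 had cDNAs, 5 in the second GAR1 and 4 in the second GAR1 IgG library.

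Most pseudogene exon signal lay where another gene was annotated on top, and such sites were not members. In the dyskerin libraries, 12994 and 15355 cDNAs fell in pseudogene exons of any kind, and the members held 16.4% and 21.3% of them. Of the 3004 members, 2900 (96.5%) had been called by the authors under the same gene identifier in GENCODE 27, and 2675 lay outside other genes on both strands. Sites were thin. In the dyskerin libraries, 1017 of 1437 and 1306 of 1935 member sites held a single cDNA, or 70.8% and 67.5%, against 72.3% and 71.7% over all sites of these libraries. Of the 1437 sites of the first dyskerin library, 442 (30.8%) were also called in the second, against 28.6% over all sites. Of the 1935 sites of the second, 22.8% were called in the first, against 27.9% over all sites, and the shared sites held 39.2% and 34.1% of member cDNAs against 51.6% and 54.2% of all cDNAs. In GAR1, 2 of 22 sites (9.09%) of the first library returned in the second, whereas 75.8% of all GAR1 sites of that library did.

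By kind of pseudogene, the sites were concentrated in those that GENCODE marks as transcribed and in duplicated copies. Processed pseudogenes are by far the most numerous, yet 74 of 8213 with an exon free of other genes (0.901%) held a site. The share was 8.82% for transcribed processed (27 of 306), 2.08% for unprocessed (49 of 2354), 6.46% for transcribed unprocessed (19 of 294) and 9.77% for transcribed unitary pseudogenes (13 of 133). None of 83 unitary pseudogenes without the transcribed mark held a site. Unprocessed and transcribed unprocessed pseudogenes together held the largest part of the dyskerin cDNAs, 29.9% and 20.6% in the first library and 30.1% and 34.5% in the second. Processed pseudogenes held 20.2% and 12.3%. These shares of genes were not adjusted for exon length or expression.

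A few genes carried most of the signal. The 5 leading pseudogenes held 44.8% of the pseudogene cDNAs of the first dyskerin library and 52.7% of the second, and the 10 leading ones 64.0% and 69.6%. Of the 167 pseudogenes with a dyskerin site, 67 had one in both libraries. For GAR1 this was 6 of 26, and 12 pseudogenes had a GAR1 but no dyskerin site. Symbols were reduced to a stem to name the parent, which grouped the 183 pseudogenes into 159 families. At least 1 protein-coding gene was named this way for 125 pseudogenes. These include C19orf48P and C22orf46P, whose stems are naming prefixes and not parents. Of the dyskerin cDNAs, 13.2% fell in 38 genes without a symbol and 12.7% in 20 genes whose stem matched no coding gene.

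ANKRD20A8P, a transcribed unprocessed member of the ankyrin repeat family ANKRD20A (chr2:94791103-94857282, minus strand), led all pseudogenes. It held 228 and 739 cDNAs in the dyskerin libraries, 4 and 14 in GAR1, 30 and 0 in the dyskerin IgG set and 5 and 0 in the GAR1 IgG set. The dyskerin replicates differed more than 3-fold in cDNAs. The 3 family members with sites came to 135 and 420 CPM (counts per 1000000 peak cDNAs) in dyskerin, 6.83 and 7.08 in GAR1 and 205 in the first dyskerin IgG library, so that the first IgG library lay between the dyskerin replicates. The parent ANKRD20A1 had only 4 and 5 exonic cDNAs in the dyskerin libraries. Of the 404 family sites, 139 (34.4%) had a window that also occurred in an exon of ANKRD20A1, and 39.9% had a window found nowhere else.

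AHSA2P is a transcribed unitary pseudogene on chr2:61177418-61191203, plus strand, related to AHSA1, which activates the chaperone HSP90. It held 282 and 400 cDNAs in dyskerin, 0 and 11 in GAR1, 35 and 0 in the dyskerin IgG set, and none in the GAR1 IgG set. Of its 276 sites, 96.7% had a window found nowhere else, and no window occurred in an AHSA1 exon. AHSA1 itself had 19 and 13 exonic cDNAs in dyskerin. The level of 166 and 213 CPM in dyskerin stood beside 239 CPM in the first dyskerin IgG library, so the groups overlapped.

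The DDX12 family comprised DDX12P (chr12:9418673-9448229, minus strand) and DDX12B (chr12:9277235-9313241, plus strand), copies of the helicase gene DDX11. The family held 187 and 264 cDNAs in dyskerin, 1 and 8 in GAR1, 17 and 0 in the dyskerin IgG set and 0 and 3 in the GAR1 IgG set. The stem names no coding gene here, but 86 of 234 sites (36.8%) had a window in a DDX11 exon, and 32.5% had a window found nowhere else. DDX11 held 133 and 293 exonic cDNAs in the dyskerin libraries, of the same order as its copies.

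PHF2P2 (chr13:18946755-19062718, minus strand), a copy of the histone demethylase gene PHF2, held 142 and 212 cDNAs in dyskerin, 6 in the first dyskerin IgG library and 0 in all others. PHF2 itself had 32 and 55 exonic cDNAs, and 35 of the 222 sites (15.8%) had a window in a PHF2 exon. GOLGA8VP (chr15:101771758-101781989, minus strand), of the golgin GOLGA8 family, held 114 and 209 cDNAs in dyskerin and 5 in the first dyskerin IgG library. The 14 coding genes named by the stem had 20 and 33 exonic cDNAs together, and 10.7% of the sites had a window in one of their exons. POTEKP (chr2:131591752-131628147, plus strand), of the POTE ankyrin family, held 134 and 163 in dyskerin and 15 in the first dyskerin IgG library. Here the parents were the more abundant, with 414 and 918 exonic cDNAs, and 19.8% of the sites had a window in a parent exon.

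Other families were smaller and uneven between replicates. ENSG00000230987, a processed pseudogene without a symbol on chr1:189989570-189993097, held 171 and 49 cDNAs in dyskerin and 4 in the first dyskerin IgG library, and 94.6% of its 111 sites had a window found nowhere else. PPP1R2P10, a copy of the phosphatase inhibitor gene PPP1R2, held 24 and 113 cDNAs in dyskerin and 0 in all other libraries. Of its 60 sites, 32 had a window in an exon of RUBCNL, a gene with 0 exonic cDNAs in every library, and 5 in an exon of PPP1R2. The 6 FRG1 pseudogenes held 44 and 87 cDNAs in dyskerin, 2 and 3 in GAR1 and 0 in IgG, with 30.9% of sites matching an exon of FRG1. ENSG00000237268 held 24 and 96 cDNAs in dyskerin, and its 2 cDNAs in the second dyskerin IgG library were the only member cDNAs there. TUFMP1, a processed copy of the mitochondrial elongation factor gene TUFM, held 21 and 47 cDNAs in dyskerin, beside 20 and 26 in TUFM exons, and 91.9% of its sites had a window found nowhere else. NCOR1P3, a copy of the corepressor gene NCOR1, was among the highest in IgG by 2 cDNAs of the second GAR1 IgG library, and it had 7 and 0 in dyskerin. LINC01399, which GENCODE types as a transcribed processed pseudogene, held 35 and 79 cDNAs in dyskerin and 3 and 1 in GAR1.

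**Figure D2:**
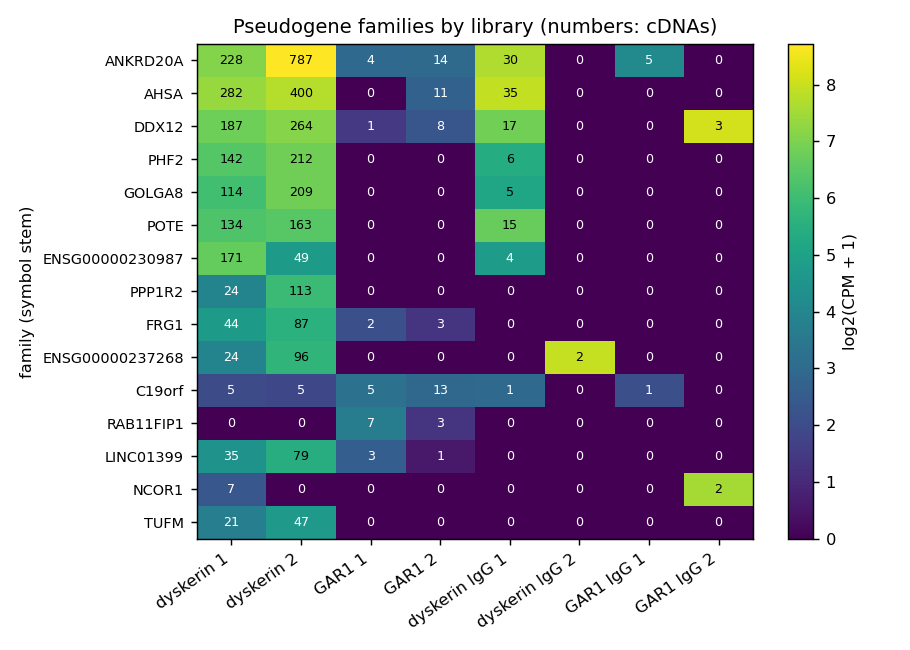
Pseudogene families named by the ranking rules (rows) in the 8 libraries (columns), coloured by log2(CPM + 1), with the number of cDNAs in each cell. Dyskerin holds up to 787 cDNAs per family, and the high colours in the second IgG libraries rest on 2 or 3 cDNAs.

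GAR1 signal in pseudogenes was sparse, and its leading family lay at small nucleolar RNAs. C19orf48P held 5 and 13 cDNAs in GAR1, or 8.54 and 6.58 CPM, against 5 and 5 in dyskerin (2.95 and 2.67 CPM), 1 and 0 in the dyskerin IgG set and 1 and 0 in the GAR1 IgG set. Both GAR1 values lay above both dyskerin values, and the first dyskerin IgG library was at 6.83 CPM from its single cDNA. Of these cDNAs, 5 and 12 in GAR1 and 4 and 4 in dyskerin fell on a single site, chr19:50802419 on the minus strand, at SNORD88C, a C/D snoRNA within this transcript. This nucleotide is 1 nt before the start of SNORD88C in GENCODE 44, and so outside that gene by the rule, but inside the longer SNORD88C of RefSeq, and the 30-nt window after it lies in the snoRNA. A second site, at SNORD88B, had the same placement and held 1 cDNA in the first dyskerin and 1 in the second GAR1 library. Its stem C19orf is a naming prefix of open reading frames and not a parent. Sites within 50 nt of a snoRNA or scaRNA held 13.9% and 14.9% of GAR1 pseudogene cDNAs and 0.234% and 0.122% of dyskerin ones, and all of them were in C19orf48P. RAB11FIP1P1, a copy of the RAB11 effector gene RAB11FIP1, held 7 and 3 cDNAs in GAR1 and 0 in every other library, and all its windows were found nowhere else. RAB11FIP1 had 37 and 18 exonic cDNAs in dyskerin and 0 in GAR1.

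How far reads could be shared with other genes was measured from the same 30-nt windows. Over the 3004 sites, 1997 (66.5%) had a window that occurred at no other place in the genome or in annotated transcripts. The window of 382 sites (12.7%) also occurred in an exon of the parent named by the stem. A further 297 (9.89%) matched an exon of some other gene that is not a pseudogene, 123 (4.09%) another pseudogene, and 205 (6.82%) some other place, which for 146 of the 205 lay inside a gene that is not a pseudogene. By cDNAs, the parent share was 8.58% (95% Wilson interval 7.46 to 9.84) and 14.9% (13.8 to 16.2) in dyskerin, 0% (0 to 9.64) and 1.15% (0.203 to 6.23) in GAR1, 13.04% and 0% in the dyskerin IgG set and 0% in both GAR1 IgG libraries. The share found nowhere else was 73.6% and 60.5% in dyskerin, 80.6% and 74.7% in GAR1, 65.9% and 0% in the dyskerin IgG set, and 100% and 40% in the GAR1 IgG set. Both GAR1 IgG libraries and the second dyskerin IgG library rest on 8 cDNAs or fewer, so their shares have almost no precision.

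Antibody and IgG libraries could not be told apart in these shares. The parent share averaged 6.17% in the 4 antibody and 3.26% in the 4 IgG libraries, a difference of 2.91 percentage points (two-sided exact permutation test, p = 0.543, adjusted p = 0.543). The share found nowhere else averaged 72.3% and 51.5%, a difference of 20.8 percentage points (exact permutation p = 0.400, adjusted p = 0.543). It was 3.69 points without the second dyskerin IgG library and 37.0 without the first GAR1 IgG library. The direction of both depended on the length of the window, since read lengths were not known. With windows of 20 nt the share found nowhere else was 41.9 points higher and the parent share 18.9 points lower in antibody libraries, and with windows of 50 nt the share found nowhere else was 5.30 points lower.

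**Figure D3:**
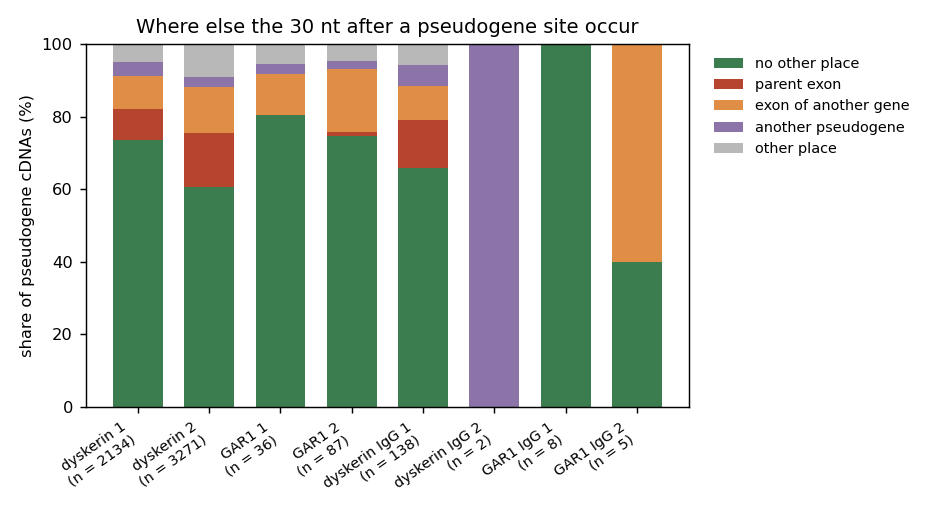
Share of pseudogene cDNAs (%) in each library by where else the 30 nt after the site occur, with the number of cDNAs below each bar. In the dyskerin libraries 73.6% and 60.5% of cDNAs had a window at no other place and 8.58% and 14.9% had one in an exon of the parent.

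The share of cDNAs whose window matched a named parent thus depended on the window length and the mismatches allowed. The 58 pseudogenes without a named parent could not count as parent matches. In the 2 dyskerin libraries, an exact match to a parent exon held for 3.47% and 7.03% of cDNAs with windows of 50 nt, for 8.58% and 14.9% with 30 nt, and for 16.5% and 24.5% with 20 nt. With up to 2 mismatches in the 30 nt, 29.8% and 37.0% matched a transcript of the parent. The alignment allowed 2 mismatches over the whole read, so these are not the shares of reads it could place on the parent. Mismatches were searched in transcripts only, not in the genome. On that search 39.8% and 30.1% matched no other transcript within 2 mismatches and no other genomic place exactly. Taking exons of any gene that is not a pseudogene in place of the named parent gave 17.7% and 27.5% for an exact 30-nt match. The remaining cDNAs had no exact counterpart in a parent exon.

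If reads had been counted at every place they matched, the matching position would carry a site too. Of the dyskerin member sites whose window had another genomic place, 392 in the first library and 737 in the second, 57 (14.5%) and 79 (10.7%) had a called site at such a place in the same library. The counts at both places were equal for 29 (7.40%) and 33 (4.48%). A partner site could be missing because it did not pass the call in its own gene or because it lay outside annotated genes, and reads of over 30 nt can tell copies apart, so these shares are no estimate of the reads shared.

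Sites lay more often at positions that tell the copies apart than exon positions of the same genes did. Over all 405770 exon positions of the 183 pseudogenes, 56.9% had a 30-nt window at 1 place in the genome. For the dyskerin sites this was 72.7% and 61.9%, beside 61.9% and 53.3% for exon positions weighted to the same genes. The order was the same in GAR1, with 72.7% against 60.5% and 69.2% against 55.4%, and in the first dyskerin IgG library, with 64.2% against 57.8%, and the first GAR1 IgG library, with all 6 sites against 48.3%. The second dyskerin IgG library went the other way, with 0% of 2 sites against 31.6%. In the second GAR1 IgG library, with 3 sites, the shares were nearly equal, 33.3% against 33.0%. Among the 20 pseudogenes with the most cDNAs, 15 had the higher share at sites. The gap was widest for DUXAP10, a copy of the homeobox gene DUXA, with 39.3% of sites against 4.30% of positions, followed by ANKRD20A9P, with 61.1% against 29.5%, and POTEKP, with 74.1% against 45.5%. It ran the other way for ENSG00000278931, with 0% of 47 sites against 31.7%. Since sites of a gene share their transcript, these shares are a description without a test.

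**Figure D4:**
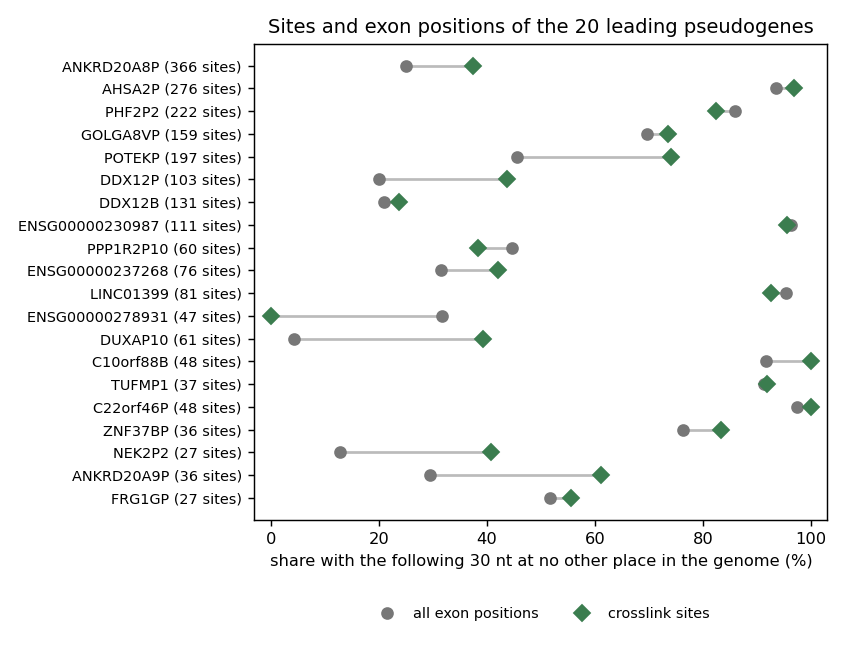
Share of crosslink sites (diamonds) and of all exon positions (circles) whose following 30 nt occur at no other place in the genome (%), for the 20 pseudogenes with the most cDNAs. Sites lie to the right of exon positions for 15 of the 20, by the most for DUXAP10 and ANKRD20A9P.

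The crosslinked base of the member sites was uridine for 30.97% and 29.56% of sites in the dyskerin libraries, 36.4% and 38.5% in GAR1 and 30.3% in the first dyskerin IgG library. Over exon positions of the same genes, uridine made up 22.5% to 24.3%. The first dyskerin IgG library thus showed a uridine share near that of dyskerin.

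Pseudogenes were next set against their parents in the dyskerin libraries. In 100 families with a parent of the same stem (C19orf and C22orf left out), the pseudogenes had more dyskerin cDNAs than the exons of their parents in 28, fewer in 68 and equal counts in 4. This tally includes zeros, since 93 of the 100 families had a dyskerin cDNA in the pseudogenes and the parents of 13 had none. Among the 38 families with at least 10 dyskerin cDNAs, 18 exceeded their parents. HSP90AB and HSP90AA, families of the chaperone HSP90, stood at the other end. The parents held 1743 and 2845 exonic cDNAs for HSP90AB and 1764 and 1966 for HSP90AA, and the pseudogenes 7 and 8, and 8 and 2. Levels of pseudogene and parent were not divided by length.

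**Figure D5:**
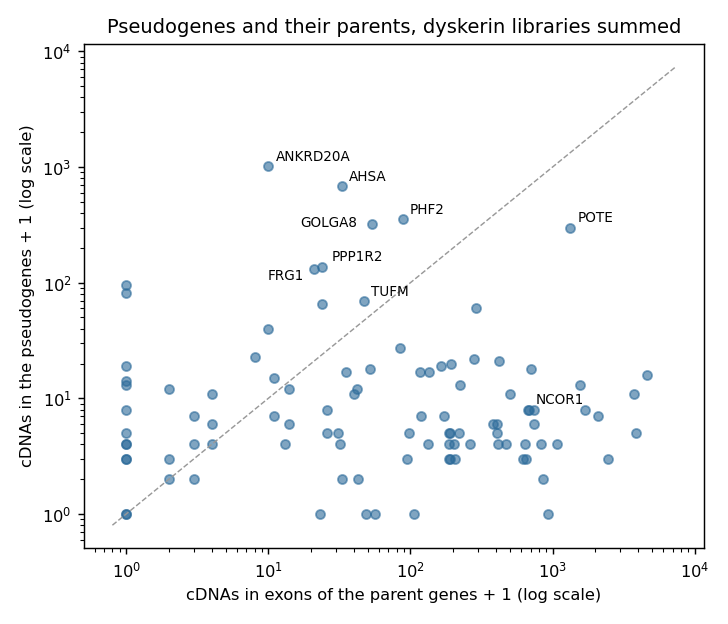
Peak cDNAs in the pseudogenes of a family (vertical, plus 1, log axis) against those in exons of the parent genes (horizontal, plus 1, log axis), both dyskerin libraries summed, 1 point for each of 100 families. The dashed line marks equal counts. ANKRD20A, AHSA, PHF2 and GOLGA8 lie far above it, and 68 families lie below it.

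Pseudogenes of housekeeping genes in 11 lists, picked by the symbol of the parent, held little of the signal. Of the 1615 annotated pseudogenes of cytosolic ribosomal protein genes, which encode the protein part of the ribosome, 1234 had an exon free of other genes, and 13 of these (1.05%) held a site, with 41 and 38 cDNAs in dyskerin, 0 and 6 in GAR1 and 0 in IgG. Among them were RPLP0P2 and RPSAP74, whose parents held 16 and 67 (RPLP0) and 1 and 0 (RPSA) exonic cDNAs in dyskerin. The coding genes counted for the whole list held 4155 and 5995. The list was picked by symbol and so also holds RPL7L1P9, with 3 cDNAs in the second GAR1 library. Over all pseudogenes the share with a site was 1.57% (183 of 11634). Chaperone pseudogenes stood at 5.84% (8 of 137), with 24 and 10 dyskerin cDNAs, and nucleolar and H/ACA protein pseudogenes at 4.08% (2 of 49), namely NAP1L1P1 and NPM1P38. Cytoskeleton pseudogenes, ANXA2P2 and KRT18P4 among them, were at 3.03% (5 of 165), hnRNP and splicing protein pseudogenes at 1.82% (3 of 165), glycolysis at 1.32% (GAPDHP65 alone of 76), chromatin proteins at 1.005% (2 of 199) and translation factors at 0.735% (EEF1DP2 alone of 136). None of 341 pseudogenes of mitochondrially encoded genes, 172 of nuclear encoded respiratory chain genes and 31 of ferritin genes held a site. No family of these lists had enough counts to be tested. The lists are not complete, and TUFM and AHSA1, for example, stand in none of them. The pseudogenes of no list held 2051 of 2134 and 3181 of 3271 dyskerin cDNAs. They were also most of the pseudogenes with an exon free of other genes (8929 of 11634). Of these 8929, 148 (1.66%) held a site, near the share over all pseudogenes.

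Families were compared between groups with edgeR's quasi-likelihood test, in which pseudogene families and all other genes entered as rows scaled to total peak cDNAs. Of the 159 families, 22 had at least 10 cDNAs in at least 2 libraries and were tested among 6371 rows. Against its IgG, no family was called for dyskerin, where the background over all rows was also 0% higher (0 of 6371), and 7 of 22 families had an unadjusted p under 0.05 by edgeR, as did 2004 of 6371 rows, a like share, and no family by DESeq2. The background of 0% depended on the filter, since with a minimum of 50 counts 760 of 3562 rows were called higher, though none of the 6 families left. Without the first or the second GAR1 library, 681 of 6341 and 609 of 6290 rows were called higher, and the lowest adjusted p of a family was 0.0505 and 0.0518 (edgeR). These 7, among them PPP1R2, FRG1 and LINC01399, had no cDNA in the dyskerin IgG set. They passed the filter on low counts through dyskerin alone. Their direction was therefore fixed by the filter, and only a ratio to a floor can be given. The floor was 3 counts over both IgG libraries (19.4 CPM). With both dyskerin libraries pooled, the PPP1R2 family stood at 1.98 times this floor, FRG1 at 1.89 and LINC01399 at 1.65. TUFM and ZNF37, also among the 7, were below this floor, and so was PPP1R2 in the first dyskerin library alone (14.2 CPM). The ratios to the floor allow for counting error only. Replicates differed beyond sampling noise, so these ratios are no lower limits on the change. For families with cDNAs on both sides, the log2 fold changes were 0.94 ± 1.46 (SE) for ANKRD20A, 0.14 ± 1.28 for AHSA, 0.39 ± 1.18 for DDX12, 1.40 ± 1.09 for PHF2, 1.52 ± 1.12 for GOLGA8 and -0.09 ± 0.95 for POTE, all with adjusted p of 0.345 or more in edgeR. The SE given is the size of the change divided by the square root of the edgeR F statistic, so it adds nothing to the p-value. These errors exceed or approach the changes themselves.

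Against its IgG, no family was called for GAR1 either (background 0% higher, 0 of 6371), none had an unadjusted p under 0.05 by edgeR, and 1 had one, lower, by DESeq2. ANKRD20A differed by -1.11 ± 1.79 and DDX12 by -2.86 ± 1.99 on the log2 scale. Without the first GAR1 IgG library, DDX12 was called lower (-6.36), on the 3 cDNAs of the second GAR1 IgG library.

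Between dyskerin and GAR1, all 22 tested families were higher in dyskerin, but so were 90.6% of all rows (5774 of 6371). All but AHSA and ANKRD20A had passed the filter on low counts only through their dyskerin cDNAs, so this count says nothing particular about pseudogenes. AHSA was higher by 5.72 ± 1.496 on the log2 scale (edgeR adjusted p = 0.000389) and ANKRD20A by 5.28 ± 1.64 (0.00240). DDX12 (5.21 ± 1.27) and FRG1 (4.01 ± 0.99) were also called higher. DDX12 and FRG1 passed the filter only with their dyskerin cDNAs, so their calls are no support for a difference. AHSA and ANKRD20A would have passed it without dyskerin. They had 11 and 14 cDNAs in the second GAR1 library and 35 and 30 in the first dyskerin IgG library. Families with no GAR1 cDNA were set against a floor of 3 counts over both GAR1 libraries (1.17 CPM), scaled to total peak cDNAs. PHF2 then stood at 84.7 times the floor, GOLGA8 at 77.3, POTE at 71.1, ENSG00000230987 at 52.6, PPP1R2 at 32.8 and TUFM at 16.3. These ratios allow for counting error only, and with the scatter between replicates they are no lower limits on the change. They would be lower with TMM scaling, whose factors were 1.45 in both dyskerin libraries and 0.289 and 0.0731 in GAR1. With TMM scaling 8 of 22 families and 2455 of 6371 rows were called higher, and the changes of AHSA (1.79), ANKRD20A (1.67), DDX12 (1.51) and FRG1 (0.63) no longer passed. FRG1 did not pass with DESeq2 either (adjusted p = 0.0625). With the first or the second dyskerin library left out, 6 of 2144 and 18 of 2129 rows were called higher and none of the 4 families that could be tested, while the change of AHSA was 6.06 and 5.69.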

How the data were processed

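Crosslink sites were taken from the deposited site lists of the 8 libraries. Per the labels and methods, the authors checked reads with FastQC 0.11.9, trimmed them with Cutadapt, whose version is not stated in the sources used here, aligned them end to end to GRCh38 with STAR 2.7.0e, allowing 2 mismatches, and with GENCODE 27 as annotation, and ran iCount, in which a read could have as many as 50 alignments and sites were called library by library (3 nt to either side, 100 permutations, false discovery rate 0.05). The deposited values are counts of cDNAs per site, not normalized. Multiply aligned reads can therefore be counted at a copy. The lists of merged clusters were not used.

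Sites were placed in GENCODE 44 genes by strand. The family of a pseudogene is its symbol without the trailing P and number, or a shorter stem shared by coding genes. Windows of 20, 30 and 50 nt were searched in the primary chromosomes of GRCh38, on both strands, and in GENCODE 44 transcripts; 337 (11.2%) 30-nt windows run past the exon, so a spliced read there would differ. Genes overlapping the window at the site itself did not count as another place.

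Rows reaching 10 counts in 2 or more libraries entered edgeR 4.0.16 (quasi-likelihood, R 4.3.3, limma 3.58.1), all 4 groups in 1 fit with 4 residual degrees of freedom, and Benjamini-Hochberg adjusted p under 0.05 was called. CPM is counts per 1000000 peak cDNAs of a library. Total peak cDNAs served as library sizes, because TMM factors ranged from 0.0731 to 4.02. DESeq2 1.42.0 was an alternative. Share differences were tested by exact permutation over libraries (70 arrangements, scipy 1.17.1). The edgeR fit was run on simulated data, and the window search was checked by plain text search. The simulated libraries had equal totals and no rows of low counts, so they do not cover the unequal totals and low counts here. Replicates of a group differed beyond sampling noise (chi-square per degree of freedom 11.0 to 32.6).

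The members, families and gene lists were chosen with earlier results of these data known. Named families were the 10 highest by mean CPM in dyskerin, the 6 highest in GAR1 and in IgG, and up to 6 called per comparison with the lowest adjusted p. Printed windows are the leading sites of the main pseudogenes of the leading families and of those with the most uniquely placed cDNAs. The windows of ENSG00000237268 and NCOR1P3 fell under the same rule and are not printed. ANKRD20A9P, DUXAP10, ENSG00000278931, ZNF37, HSP90AA, HSP90AB and the examples from the gene lists were named after their values were seen.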

Additional observations from a re-analysis of the deposited data

How the results depend on the processing

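Dyskerin and GAR1 were called against their IgG for 0 families under every setting run, except that GAR1 gave 0 to 1 when a library was left out. The number called between dyskerin and GAR1 was 22, and it was 8 with TMM, 10 with DESeq2, 34 without the filter on low counts (33 higher and 1 lower, of 159 tested), 6 with a minimum of 50 counts and 7 with sites of at least 3 cDNAs, where fewer rows were tested. It ranged from 0 to 22 when a library was left out. The difference in the share of peak cDNAs between antibody and IgG libraries kept its direction in all alternatives run. The difference in the parent share was -18.9 percentage points with 20-nt windows, -1.93 with exons of any gene that is not a pseudogene, and -0.0192 to 6.17 with 1 library left out. That in the share found nowhere else was -5.30 with 50-nt windows and 3.69 to 37.0 with 1 library left out. Of the dyskerin changes against IgG (log2), POTE was 0.0896 with TMM, 0.61 with DESeq2 and -0.30 to 0.27 with a library left out, AHSA -0.33 to 0.59 with a library left out, and ENSG00000237268 -0.17 with DESeq2 and -2.89 to 0.87 with a library left out. ANKRD20A in GAR1 against IgG was 2.84 with TMM. The cause was not tested. Replicate numbers were not taken to pair the samples (correlations of their deviations -0.0834 to 0.100). Such correlations cannot decide on pairing, since each group has only 2 libraries. With a replicate block, 16 families were called between dyskerin and GAR1, ANKRD20A (edgeR adjusted p = 0.0585), FRG1 (0.0627) and LINC01399 not among them, and the dyskerin changes against IgG of POTE and ENSG00000237268 were 0.37 and -0.12. Values of 22 family changes are not given where a group fell to 0 under an alternative. Leaving out mitochondrial families changed nothing, since none held a site. Precision is low in the IgG sets, with 2 to 8 pseudogene cDNAs in 3 of their 4 libraries.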
